A study of Homo sapiens with 14 samples.

Results

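The genes described here encode proteins of the splicing machinery. They are the protein-coding genes of the deposited table matched by position to a symbol beginning with SRSF, HNRNP, SF3A, SF3B, SNRP or PRPF. There were 57 of them among 12425 genes: 8 SRSF, 20 HNRNP, 3 SF3A, 6 SF3B, 9 SNRP and 11 PRPF genes. Of the 12425 genes 10737 were given a symbol, so genes of these families may remain among the rest. The reference held 71 protein-coding symbols with these beginnings, and the 14 that could not be paired with a row of the table, SRSF1, SRSF5, SNRPD3, SNRPF and SNRPN among them, were not analysed here. Genes of the same complexes with other symbols, such as SNRNP70 and SNRNP200, were counted in a separate list of other splicing genes.

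RNA polymerase II (RNAPII) occupancy was measured by chromatin immunoprecipitation and sequencing in BJ hTERT cells, an established fibroblast line from human foreskin that carries telomerase. The 14 libraries were 1 per group. The total RNAPII antibody was against the N-terminal domain of RPB1, the largest RNAPII subunit. The other was against RPB1 with phosphate on serine 2 of the C-terminal heptads (Ser2), the form found on elongating polymerase. Each was used at 14 h, labelled CTR with no treatment named. Each was also used at 16, 19 and 22 h with DMSO, the vehicle, or with ATRi, an inhibitor of the replication stress kinase ATR. The series concerns the effect of ATR inhibition on RNAPII transcription in S phase. What the hours count from, which inhibitor was used and whether the cells were synchronised are not given in the sources used here, and the protocol text names only histone antibodies, so the antibody of each library rests on its label.

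Splicing removes introns from pre-mRNA while RNAPII is still transcribing the gene. The spliceosome assembles from small nuclear ribonucleoproteins (snRNPs), each an RNA bound by Sm and particle-specific proteins. The SF3A and SF3B complexes belong to the U2 snRNP and help it to hold the branch site, and many PRPF proteins belong to the U4/U6.U5 tri-snRNP or drive its rearrangement. SR proteins (SRSF) bind exonic enhancers and mostly favour exon inclusion, whereas hnRNP proteins coat nascent RNA and often oppose it. Most cell types express the core spliceosome genes, and many SR and hnRNP genes regulate their own mRNA through alternative exons that lead to its decay.

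Promoter sequences from the RefSeq table (GRCh38.p14) were matched for 50 of the 57 genes. The 5 shown are the gene with the largest rise of Ser2 between 16 and 22 h (HNRNPUL1), a core Sm gene with an ETS motif (SNRPB), 2 genes with a TATA box (SRSF3 and HNRNPAB) and the gene with the highest Ser2 relative to total RNAPII (PRPF18). Each run is the 150 bases before the annotated start, 5′ to 3′ on the gene's strand, with capitals marking any motif found. The positions are chr19:41262407-41262556 on the + strand for HNRNPUL1, chr20:2470790-2470939 on the - strand for SNRPB, chr6:36594212-36594361 on the + strand for SRSF3, chr5:178204383-178204532 on the + strand for HNRNPAB and chr10:13586815-13586964 on the + strand for PRPF18.
HNRNPUL1: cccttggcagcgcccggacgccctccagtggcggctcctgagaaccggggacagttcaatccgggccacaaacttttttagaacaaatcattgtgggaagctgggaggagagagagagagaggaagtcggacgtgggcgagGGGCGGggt
SNRPB: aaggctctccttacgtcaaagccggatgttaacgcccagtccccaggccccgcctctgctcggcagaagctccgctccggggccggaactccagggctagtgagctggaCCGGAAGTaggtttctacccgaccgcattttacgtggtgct
SRSF3: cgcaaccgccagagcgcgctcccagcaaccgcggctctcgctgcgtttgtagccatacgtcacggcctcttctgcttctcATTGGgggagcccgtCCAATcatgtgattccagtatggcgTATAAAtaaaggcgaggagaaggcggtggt
HNRNPAB: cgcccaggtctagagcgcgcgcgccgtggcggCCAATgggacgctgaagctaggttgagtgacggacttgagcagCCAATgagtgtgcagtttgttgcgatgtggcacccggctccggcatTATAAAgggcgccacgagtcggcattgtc
PRPF18: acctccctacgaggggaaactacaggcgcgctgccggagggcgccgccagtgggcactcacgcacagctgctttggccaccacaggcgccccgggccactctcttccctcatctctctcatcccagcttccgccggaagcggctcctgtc
The capitals mark the SP1 motif GGGCGG in HNRNPUL1 and the ETS motif CCGGAAGT in SNRPB. In SRSF3 and HNRNPAB they mark the NFY motif CCAAT or its reverse complement. The third mark in each of these genes is the TATA box. In both genes its letters were TATAAA, and that of SRSF3 spans the bases 30 to 25 before the start, and that of HNRNPAB the bases 29 to 24. None of the letters searched were found in the PRPF18 window.

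Over the full 300-base promoters, from 250 bases before to 50 after the start and read on both strands, CCGGAAGT was present in 12 of 50 splicing factor promoters (24.0%) and in 6.19% of 15842 protein-coding promoters. The 12 included SNRPA1, SNRPB and SNRPE and 6 genes of the U2 subunits: SF3A1, SF3A2, SF3A3, SF3B2, SF3B4 and SF3B6. The E-box CACGTG was in 8 promoters (16.0%, against 8.88%), of which 7 belonged to HNRNP genes. The YY1 motif AAGATGGC was in 4 (8.0%, against 3.91%), namely PRPF38B, SF3A1, SF3B2 and SF3B4. Any of the E2F motifs TTTGGCGC, TTTCCCGC and TTTCGCGC was in 4 (8.0%, against 3.77%), and the NRF1 motif, a palindrome of GC-rich repeats, in 6 (12%, against 8.57%). The NFY motif was in 46.0% of splicing factor promoters against 36.4% of all, the SP1 motif in 62.0% against 58.5%, and the TATA box in 12% against 9.63%. The CHR motif TTTGAA was in 10.0% against 12.1%. The CREB motif TGACGTCA was in 0.0% against 2.59%. Median GC content was 62.2% in splicing factor promoters and 62.7% in all of them. These matches are descriptions of letters and were not tested.

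The libraries held 17181179 to 62368915 reads, and each deposited value counts the reads that fall anywhere between a gene's ends, scaled to library size (RPM, reads per 1 M reads). Splicing factor genes had at least 25 reads in every library. The share of library reads inside nuclear genes was 71.98% (DMSO) and 70.81% (ATRi) at 19 h in total RNAPII, against 42.77% to 57.39% at the other hours, and in Ser2 63.5% and 65.56% at 19 h against 35.81% to 44.28%. This share moves with every comparison of hours below, and at 22 h it was also higher with ATRi (57.39%) than with DMSO (42.77%) in total RNAPII. More polymerase on genes and a more efficient immunoprecipitation cannot be told apart from these values, so differences are also given relative to the median gene. Of the fibroblast markers 10 of 11 had a row, at percentiles 67.3 to 99.4 of total RNAPII density with a summed level of 1240 to 3140 RPM. KRT14, the single keratinocyte marker with a row of 5, stayed between 0.236 and 0.905 RPM. VWF, the single endothelial or blood marker with a row of 6, had 15.2 to 49.0 RPM and lay at percentile 0.95 of density. No melanocyte marker had a row.

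Splicing factor genes carried dense RNAPII. Per kilobase of span, the median density of the 57 genes, each averaged over the 7 total RNAPII libraries, was 1.91 RPM per kb, against 0.842 for 12000 genes. Of the 57, 52 lay above the median gene, 34 in the top 25% and 18 in the top 10%. The genes were also short, with a median span of 15859 bp against 31889 bp. Together they took 0.283% of in-gene reads in the library of lowest share (16 h DMSO, Ser2) and 0.47% in that of highest share (19 h DMSO, total RNAPII).

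The order ran from SR and hnRNP genes down to PRPF genes. Median total RNAPII density was 4.7 RPM per kb for SRSF, 3.12 for HNRNP, 1.85 for SNRP, 1.6 for SF3A and SF3B together, and 0.893 for PRPF genes. The 85 other splicing genes with a row, of 93 listed, had a median of 1.03. Gene spans ran nearly the other way. Median span was 9687 bp for SRSF, 14048.5 for HNRNP, 12603 for SNRP, 18580 for SF3A and SF3B, and 31720 for PRPF genes. That of the other splicing genes was 25048 bp, and the part of span in this order was not tested. The highest densities were those of SRSF2 (mean 10.8, range 7.44 to 14.7 RPM per kb), HNRNPA1 (9.55, 5.92 to 14.0), HNRNPDL (9.51, 5.56 to 13.3), SF3B5 (6.94, 3.44 to 12.03) and HNRNPA2B1 (6.51, 4.04 to 8.87). SRSF2 and HNRNPA1 encode an SR protein and an abundant hnRNP that act on exons in opposite senses, and SF3B5 encodes a small subunit of the SF3B complex from a gene of 693 bp. Ranges of neighbours in this order overlapped throughout the top 5. SRSF2 shares 46.3% of its span with another gene of the table, and reads there cannot be assigned to either gene.

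The lowest densities belonged to PRPF31 (0.209, range 0.0999 to 0.354 RPM per kb), PRPF18 (0.487, 0.417 to 0.634), PRPF8 (0.609, 0.372 to 0.979), PRPF6 (0.621, 0.444 to 0.870) and HNRNPLL (0.828, 0.684 to 1.00). PRPF31 was at percentile 2.03 of all genes and did not overlap the range of any of the other 4. PRPF8, the large scaffold at the centre of the spliceosome, lay at percentile 32.6. PRPF31, PRPF8 and PRPF6 encode tri-snRNP proteins, and PRPF18 a factor of the second catalytic step. PRPF6 lies wholly within the span of another gene of the table.

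**Figure D1:**
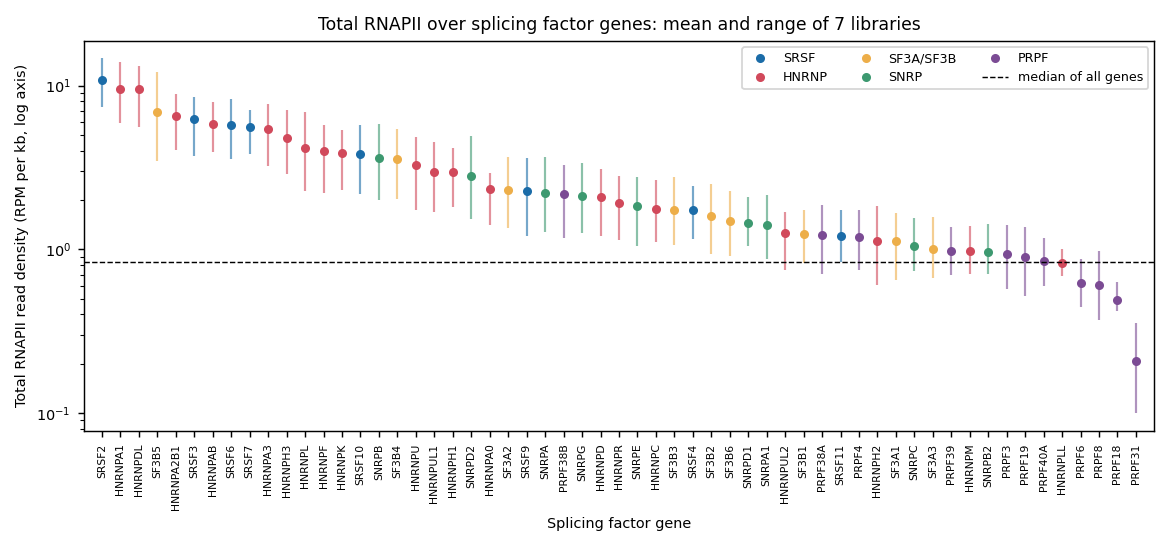
Mean total RNAPII read density (RPM per kb of gene span, log axis) of each of the 57 splicing factor genes, with vertical lines for the range over 7 libraries, coloured by family, and the median of all genes as a dashed line at 0.842. Most SRSF and HNRNP genes lie at the upper end, and 52 of 57 genes are above the line.

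The values by library followed 1 course. In RPM as deposited, both 19 h libraries lay above all 5 others of the same antibody in 57 of 57 splicing factor genes, in total RNAPII (80.7% of all genes) and in Ser2 (87.0%). SRSF3, an SR protein gene, had 41.7 RPM of total RNAPII at 14 h, 57.1 with DMSO against 71.8 with ATRi at 16 h, 95.2 against 93.6 at 19 h and 47.5 against 84.1 at 22 h. Its Ser2 values were 33.6 at 14 h, 27.0 against 31.8 at 16 h, 88.9 against 92.0 at 19 h and 36.7 against 46.5 at 22 h. The ATRi libraries stood above their DMSO partners at 16 and 22 h with both antibodies, and at 19 h the partners were close. SRSF2 had 25.6 RPM of total RNAPII at 14 h, 31.3 against 34.4 at 16 h, 47.8 against 43.5 at 19 h and 24.3 against 39.8 at 22 h. In Ser2 it had 18.3, then 12.6 and 17.1, 37.1 and 39.9, and 18.0 and 21.7 RPM in the same order. SRSF2 showed the same peak at 19 h in both antibodies, with the ATRi library higher at 16 and 22 h. SRSF7, whose protein exchanges between nucleus and cytoplasm, had 33.9 RPM of total RNAPII at 14 h, 42.1 against 42.9 at 16 h, 56.1 against 54.9 at 19 h and 30.3 against 47.9 at 22 h, and in Ser2 25.8, 17.9 and 17.8, 44.5 and 50.6, and 20.6 and 25.0. At 16 h its DMSO and ATRi libraries were alike in both antibodies.

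Among the hnRNP genes, HNRNPA1 had 41.0 RPM of total RNAPII at 14 h, 56.0 with DMSO against 54.3 with ATRi at 16 h, 96.5 against 95.3 at 19 h and 40.8 against 77.0 at 22 h. Its Ser2 values were 33.7, then 23.9 and 24.9, 75.9 and 84.2, and 31.7 and 40.6. At 22 h the ATRi library of total RNAPII stayed well above the DMSO library, which was back at its 14 h level. HNRNPA2B1, a paralogue of similar role, had 48.3 RPM of total RNAPII, then 69.6 and 74.0, 101 and 103, and 46.9 and 85.5, and in Ser2 36.7, 29.5 and 31.3, 89.9 and 94.5, and 36.3 and 47.7. HNRNPU, a chromatin-associated hnRNP, had 27.2 RPM of total RNAPII, then 39.1 and 40.7, 64.7 and 61.4, and 23.3 and 49.4, and in Ser2 23.4, 17.6 and 19.1, 54.8 and 56.9, and 22.1 and 30.4. Both genes repeated the gap at 22 h in total RNAPII. HNRNPK, a poly(C)-binding protein gene, had 32.0 RPM of total RNAPII, then 45.3 and 45.1, 67.5 and 65.2, and 29.0 and 54.9, and in Ser2 24.1, 18.9 and 20.9, 53.7 and 58.6, and 22.5 and 30.3. HNRNPK likewise differed little between treatments before 22 h in total RNAPII.

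The snRNP and tri-snRNP genes followed the same course. SF3B1, the branch site subunit of U2 and the one most often mutated in myelodysplasia, had 37.2 RPM of total RNAPII at 14 h, 46.3 with DMSO against 51.2 with ATRi at 16 h, 77.5 against 79.0 at 19 h and 40.8 against 60.1 at 22 h. Its Ser2 values were 33.6, then 26.3 and 29.0, 65.5 and 72.6, and 34.5 and 41.8. SF3B1 was higher with ATRi in all 6 pairs. SF3A1 had 20.1 RPM of total RNAPII, then 25.1 and 24.2, 41.3 and 39.1, and 16.2 and 29.0, and in Ser2 14.5, 12.8 and 14.4, 28.6 and 31.6, and 15.8 and 17.5. SNRPB, which encodes the core proteins SmB and SmB′, had 18.4 RPM of total RNAPII, then 27.6 and 26.2, 53.8 and 49.7, and 19.9 and 36.7, and in Ser2 16.4, 10.9 and 13.1, 38.7 and 40.3, and 15.9 and 20.7. Both were lower with ATRi than with DMSO at 16 and 19 h in total RNAPII and higher in every Ser2 pair. PRPF8 had 12.8 RPM of total RNAPII, then 17.0 and 16.5, 32.2 and 33.5, and 13.8 and 20.3, and in Ser2 11.0, 9.64 and 10.8, 24.6 and 28.2, and 11.4 and 14.8.

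**Figure D2:**
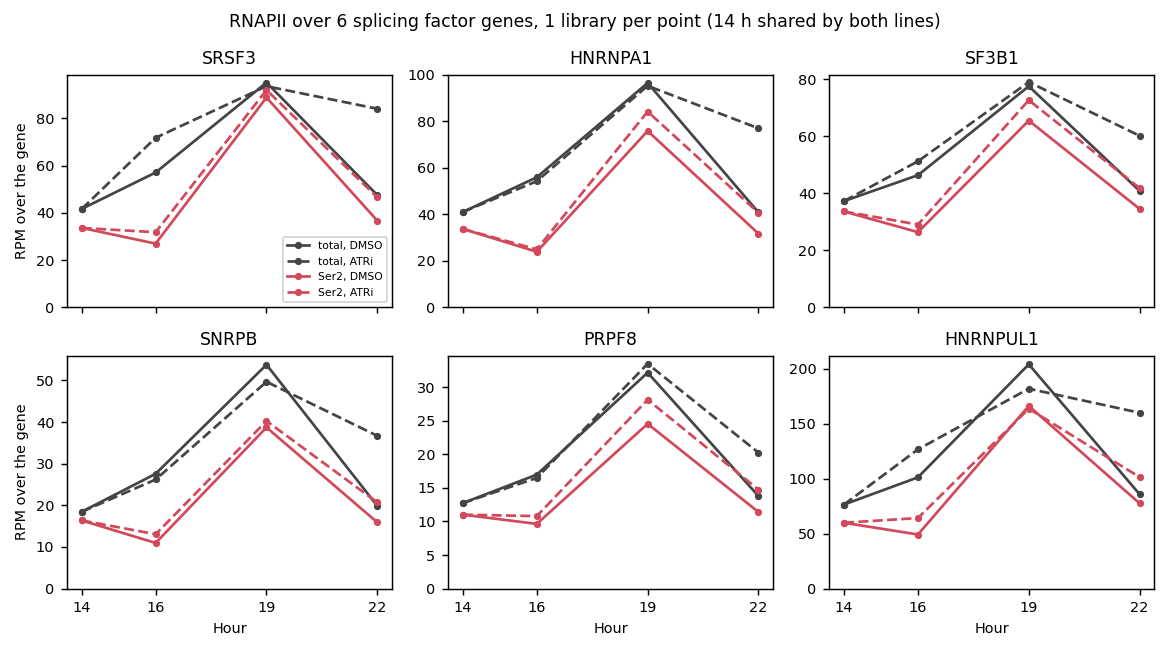
RPM over the gene (y axis from 0) at 14, 16, 19 and 22 h for 6 splicing factor genes, 1 library per point, total RNAPII in grey and Ser2 in red, DMSO as solid and ATRi as dashed lines that start from the shared 14 h library. Each gene is highest at 19 h, and in total RNAPII the dashed line stays above the solid line at 22 h.

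Relative to the median gene, occupancy of the median splicing factor gene rose into 19 h and fell after it, more in Ser2 than in total RNAPII. The median splicing factor gene moved from 16 to 19 h by 0.15 (DMSO) and 0.23 (ATRi) log2 units above the median gene in total RNAPII, and by 0.46 and 0.55 in Ser2. From 19 to 22 h it moved by -0.30 and -0.09 in total RNAPII and by -0.37 and -0.28 in Ser2. Families differed in the ATRi pair of total RNAPII. HNRNP and SRSF genes had medians of 0.06 and 0.03 there, against -0.15 for SF3A and SF3B, -0.24 for SNRP and -0.16 for PRPF genes. From 14 h to 16 h DMSO the 2 antibodies went opposite ways: 0.12 in total RNAPII, with 46 of 57 genes above the median gene, and -0.19 in Ser2, with 7 above it. These single pairs of libraries have no replicate, and the differences were not tested. HNRNP and SNRP genes had the largest Ser2 gain into 19 h, with family medians of 0.61 and 0.63 in DMSO, against 0.23 for PRPF genes.

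Ser2 occupancy was higher at 22 h than at 16 h in most splicing factor genes. The test compared the hours with treatment in the model, so that both treatments of an hour serve as its replicates, and its p-values measure only the spread between these libraries. With limma and a Benjamini-Hochberg adjusted p threshold of 0.05, 47 of 57 genes were higher and 0 lower, where 39.0% of all genes tested were higher and 0.918% lower. By family, 8 of 8 SRSF, 19 of 20 HNRNP, 7 of 9 SF3A and SF3B, 7 of 9 SNRP and 6 of 11 PRPF genes rose, and 57 of the 85 other splicing genes did. The median difference of the 57 genes was 0.40 on the log2(RPM + 0.5) scale, 0.20 above the median gene, with 48 genes above it. Relative to the median gene it was 0.13 with DMSO and 0.27 with ATRi. Under both treatments 55 of 57 genes were higher at 22 h (71.6% of all genes) and 0 lower (8.74%). Relative to the median gene 41 were higher under both (71.9%, against 36.2% of all genes) and 3, SF3A3, SF3B6 and PRPF18, lower under both (5.26%, against 36.2%).

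HNRNPUL1, an hnRNP U-like protein gene, rose most, by 0.65 log2 units (moderated SE 0.099, limma adjusted p = 0.00013), from 49.2 to 77.5 RPM with DMSO and from 64.2 to 101 RPM with ATRi. Another gene of the table overlaps 13.3% of the HNRNPUL1 span, and reads there cannot be assigned to either gene. HNRNPR rose by 0.63 (SE 0.106, limma adjusted p = 0.00027), from 33.9 to 43.8 RPM and from 30.1 to 56.6 RPM. HNRNPH3 rose by 0.63 and HNRNPA3 by 0.61, and both 22 h libraries of each gene lay above both 16 h libraries. The Sm gene SNRPB (0.58, SE 0.103, limma adjusted p = 0.00039) and the SR gene SRSF6 (0.58, SE 0.102, limma adjusted p = 0.00038) followed. HNRNPL, HNRNPH1, HNRNPA1 and SRSF10 were also among the 10 genes of smallest adjusted p. The 4 smallest differences were those of SF3B6 (0.09, limma adjusted p = 0.56), PRPF6 (0.13, 0.28), PRPF39 (0.13, 0.33) and PRPF4 (0.14, 0.32), none past the threshold. SF3B6 contacts the branch site adenosine, PRPF39 acts in the U1 snRNP and PRPF4 in the tri-snRNP.

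The count depended on the scale. With each library centred on its median gene, 15 splicing factor genes were higher against 10.2% of all genes and 0 were lower against 10.5%, and with the trend of the difference on read density removed 0 were higher against 4.18% and 0 lower against 3.19%. edgeR called 15 higher and 0 lower (9.68% and 7.6% of all genes), and DESeq2 9 and 0 (5.2% and 4.98%). The difference correlated with log2 Ser2 density across genes, with Pearson's r of 0.56 over the 57 genes and 0.57 over 11989 genes, which share the same libraries and are not independent.

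**Figure D3:**
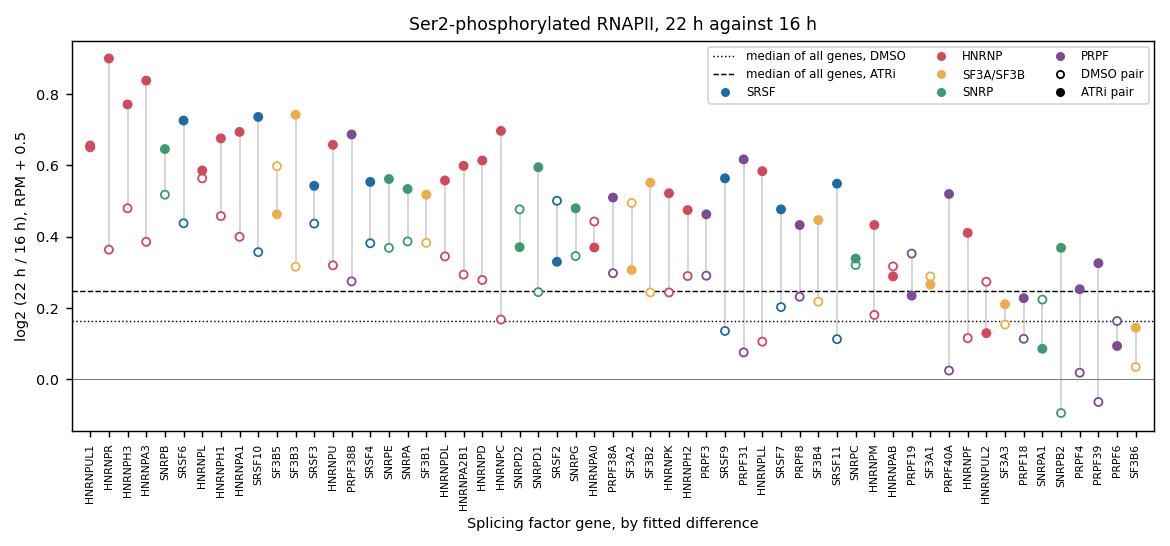
Log2 ratio of Ser2 at 22 h to 16 h (RPM + 0.5) for each of the 57 splicing factor genes, ordered by fitted difference, with open circles for the DMSO pair, filled circles for the ATRi pair and lines at the median of all genes in each pair. In 55 of 57 genes both circles are above 0, and the ATRi circle is mostly the higher.

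In total RNAPII no splicing factor gene passed the test between 22 h and 16 h, and the DMSO and ATRi pairs that the fit averages went opposite ways. The median difference was -0.45 log2 units with DMSO, with 1 of 57 genes above 0, and 0.28 with ATRi, with 55 above 0. With limma 0 of 57 were called where 0.0% of all genes were, 0 had an unadjusted p below 0.05, and edgeR and DESeq2 also called 0. With the trend on read density removed, HNRNPR alone passed and was higher, where 3.94% of all genes were higher and 4.53% lower. Relative to the median gene, the median splicing factor gene was at -0.19 with DMSO and at 0.14 with ATRi. The lowest values were -0.32 for PRPF19, the ubiquitin ligase of the complex named after it, -0.28 for HNRNPF, -0.25 for the Sm gene SNRPE and -0.23 for HNRNPU. The highest were 0.20 for HNRNPR, 0.17 for PRPF3, 0.10 for PRPF31 and 0.10 for PRPF6, and limma's adjusted p was 1.0 for each of these 8.

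Whether the hour difference itself differed between antibodies was tested after the values had been seen. The Ser2 difference exceeded that of total RNAPII by a median of 0.49 log2 units, 0.21 above the median gene, and 49 of 57 genes lay above the median gene. With limma 0 genes were called (0.0% of all genes), although 31 had an unadjusted p below 0.05, all higher, against 2795 higher of 12013 genes. edgeR and DESeq2 also called 0. HNRNPU (0.72), SNRPE (0.71), HNRNPDL (0.65) and SRSF10 (0.64) had the largest values, with limma adjusted p of 0.18, 0.19, 0.18 and 0.18. PRPF6 (0.03), PRPF18 (0.13), SNRPB2 (0.19) and PRPF3 (0.21) had the smallest. Without the 19 h libraries SRSF10, HNRNPUL1, HNRNPDL and HNRNPA2B1 passed (4 genes, against 2.68% of all genes).

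Ser2 relative to total RNAPII was below that of the median gene in most splicing factor genes. This comparison took the 7 pairs of the same hour and treatment, each library centred on its median gene, because 2 antibodies have no common scale. The test counts these pairs as independent, and its p-values measure only the spread between them. Medians of the 57 genes relative to the median gene, DMSO then ATRi, were -0.344, -0.315 (16 h), -0.049, -0.008 (19 h), -0.119, -0.233 (22 h). Where pairs of an hour are this alike, as for 16 h, the p-values can overstate the precision. With limma 29 of 57 genes were lower and 2 higher, where 24.5% of all genes were lower and 30.1% higher. By family, 4 of 8 SRSF, 12 of 20 HNRNP, 6 of 9 SF3A and SF3B, 5 of 9 SNRP and 2 of 11 PRPF genes were lower. The median was -0.17 relative to the median gene, and by pair it ran from -0.34 (16 h DMSO) to -0.01 (19 h ATRi). Below the median gene in all 7 pairs were 13 genes (22.8%, against 19.0% of all genes), and above it in all 7 were SF3A3 and SNRPB2 (3.51%, against 20.9%). The count rested on the 16 h libraries, since without them 7 genes were lower and 2 higher (16.7% and 21.5% of all genes), and without the 22 h libraries 19 and 2 were (20.1% and 24.9%).

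HNRNPH3 was lowest at -0.43 (moderated SE 0.070, limma adjusted p = 0.00047), with values by pair from -0.73 at 16 h DMSO to -0.18 at 19 h ATRi, below the median gene in 7 of 7 pairs. SF3B5 followed at -0.41 (SE 0.104, limma adjusted p = 0.0059), although its 14 h pair was above the median gene at 0.15. SF3B4, whose protein binds pre-mRNA near the branch site, was at -0.38 (SE 0.060, limma adjusted p = 0.00037) and lower in 7 of 7 pairs. HNRNPAB was at -0.34 (SE 0.058, limma adjusted p = 0.00061) and also lower in all 7. HNRNPUL2, SNRPA, SF3B2, PRPF4 and SRSF2 were the next by adjusted p on the lower side, between -0.28 and -0.19. Other genes of the table overlap 40.2% of the HNRNPAB span and 33.0% of that of HNRNPH3.

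The 2 genes on the other side were PRPF18 at 0.30 (SE 0.067, limma adjusted p = 0.0028) and SNRPB2, the U2 B″ protein gene, at 0.21 (SE 0.059, limma adjusted p = 0.0086). PRPF18 had 18.3 RPM of total RNAPII at 14 h, 19.1 with DMSO against 19.7 with ATRi at 16 h, 24.9 against 27.9 at 19 h and 19.3 against 20.8 at 22 h. Its Ser2 values were 18.0, then 18.4 and 17.6, 23.8 and 23.8, and 19.9 and 20.6. Of the genes whose values are given by library it changed least, and its Ser2 values were close to those of total RNAPII throughout. On the deposited RPM scale neither gene was higher, and 55 splicing factor genes were lower against 78.7% of all genes and 0 higher against 3.79%. PRPF6 (0.11, limma adjusted p = 0.12) and SF3A3 (0.09, 0.067) were the next highest and did not pass.

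This ratio followed gene span and density. Of the 41 splicing factor genes under 30 kb, 28 were lower (68.3%, against 45.4% of all genes under 30 kb), and of the 16 longer ones 1 was (6.25%, against 5.14%). Across the 57 genes Pearson's r with log2 span was 0.63 and with log2 total RNAPII density -0.76, against 0.64 and -0.80 across all 12000. Total RNAPII enters both the ratio and that density, with opposite signs. Part of the negative r is therefore fixed by how the values are computed. With the trend on density removed, 7 genes were higher (14.8% of all genes), 6 were lower (17.1%) and the median was 0.03. The higher ones were SNRPB2 and SF3A3, with HNRNPA3, HNRNPUL1, HNRNPU, SF3B3 and HNRNPC, which had lain below the median gene before. PRPF18 was not among them. The lower ones were HNRNPH3, SF3B4, HNRNPUL2, PRPF4, PRPF8 (-0.19) and PRPF31 (-0.66), of which PRPF8 and PRPF31 had not passed before. PRPF31 was at -0.07 before the removal. It lay near the low end of total RNAPII density, at percentile 2.03, so its value rests on the trend there.

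**Figure D4:**
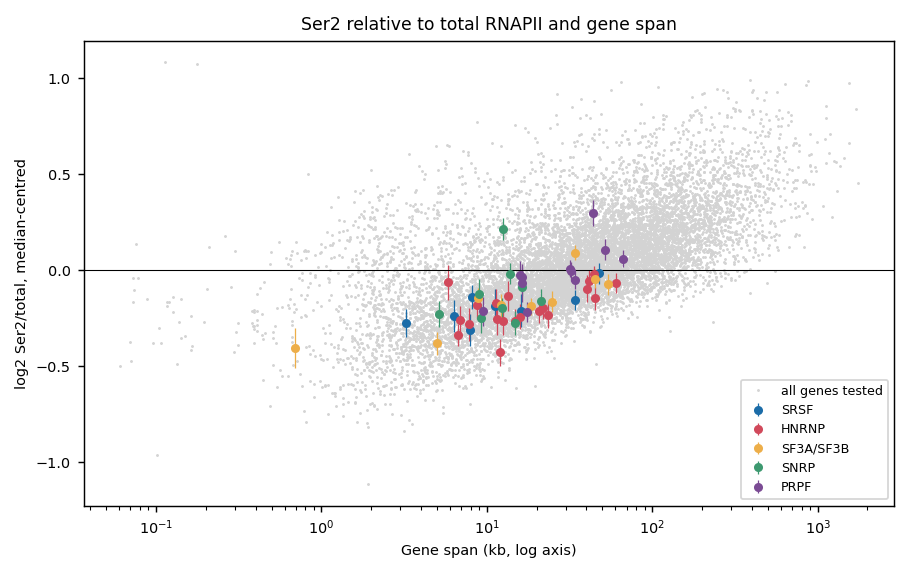
Log2 ratio of Ser2 to total RNAPII, each library centred on its median gene, against gene span (kb, log axis), with splicing factor genes in colour (bars are the moderated SE over 7 pairs) and all genes tested in grey. Splicing factor genes under 30 kb lie mostly below 0 within the grey cloud, and PRPF18 and SNRPB2 lie above 0.

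ATR inhibition gave no called difference in any splicing factor gene. In total RNAPII limma, with hour as a block, called 0 of 57 genes (0.0% of all genes), 0 had an unadjusted p below 0.05, and edgeR and DESeq2 called 0. The median was 0.23 log2 units higher with ATRi, 0.06 above the median gene, and 48 genes lay above the median gene. That excess came with the 22 h pair: relative to the median gene it was -0.02 at 16 h, 0.00 at 19 h and 0.25 at 22 h, and without 22 h it was -0.02, with 19 genes above. With the trend on read density removed it was -0.02 in both antibodies. HNRNP genes had the largest family value at 22 h, 0.40, and PRPF genes the smallest, 0.04. Before the median gene was subtracted, 57 of 57 genes were higher with ATRi at 22 h, by a median of 0.756 log2 units. So were 10666 of all 12000 genes, whose median was 0.504, and this single pair of libraries was not tested. The 22 h pair also had the largest difference between treatments in the in-gene share of reads in total RNAPII (42.77% with DMSO against 57.39% with ATRi, where 16 h had 49.41% against 52.01% and 19 h 71.98% against 70.81%), and the part of that share in the difference was not tested.

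PRPF38B had the highest fitted value in total RNAPII, 0.41 (moderated SE 0.227, limma adjusted p = 0.77), followed by SRSF3 (0.37, SE 0.186), HNRNPUL2 (0.36, SE 0.229) and HNRNPU (0.35, SE 0.204), each with limma adjusted p = 0.77. Relative to the median gene, PRPF38B was at 0.16, 0.06 and 0.49 at 16, 19 and 22 h, and HNRNPU at 0.01, -0.05 and 0.57. PRPF38B was thus above the median gene at each hour, and HNRNPU only clearly so at 22 h. SNRPD1 (0.09), SF3A3 (0.09), PRPF18 (0.10) and HNRNPLL (0.15) had the lowest fitted values. SRSF3, SRSF4, HNRNPA0, HNRNPA2B1, HNRNPR, SF3B1 and PRPF38B lay above the median gene at all 3 hours (7 of 57, 12.3%, against 8.27% of all genes), and SF3A3 and SNRPD1 below it at all 3 (3.51%, against 6.89%). Some of these signs rest on very small values. SRSF3 was at 0.002 and HNRNPA0 at 0.001 at 19 h, and HNRNPR at 0.001 at 16 h. SNRPD1 was at -0.002 at 19 h and -0.01 at 22 h.

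In Ser2, limma again called 0 of 57 genes (0.0% of all genes), while 22 had an unadjusted p below 0.05, all higher, as did 2630 of 11989 genes. edgeR and DESeq2 called 0. With ATRi 39 of 57 genes were higher at all 3 hours (68.4%, against 42.6% of all genes) and 0 were lower at all 3 (3.45% of all genes). Relative to the median gene 12 were higher at all 3 hours (21.1%, against 16.0%) and 2, SNRPG and PRPF18, lower (3.51%, against 16.9%). The median was 0.15, or 0.05 above the median gene, and by hour 0.02, 0.03 and 0.14 above it. HNRNPAB, an RNA-binding protein gene with a TATA box (shown above), had the highest value, 0.36 (SE 0.081, limma adjusted p = 0.082), and stood 0.39, 0.13 and 0.26 above the median gene at 16, 19 and 22 h. It had 14.2 RPM with DMSO against 19.7 with ATRi at 16 h, 36.1 against 41.2 at 19 h and 17.9 against 24.2 at 22 h. SF3B6 (0.31, SE 0.094, limma adjusted p = 0.095), SRSF2 (0.26, SE 0.083, limma adjusted p = 0.10) and PRPF31 (0.25, SE 0.134, limma adjusted p = 0.27) followed. PRPF18 (-0.01), SNRPB2 (0.05), SNRPG (0.06) and HNRNPLL (0.07) were lowest. Without the 19 h libraries 5 splicing factor genes passed, HNRNPAB, SF3B6, SRSF2, HNRNPA3 and HNRNPUL1, against 7.09% of all genes. HNRNPAB, SRSF2 and HNRNPUL1 share part of their span with other genes, as given above, and reads there cannot be assigned to either gene.

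The difference between the antibodies in the ATRi effect was not called in any gene by limma (0 of 57, 0.0% of all genes, 0 with an unadjusted p below 0.05), nor by edgeR or DESeq2. The lowest values, a smaller ATRi difference in Ser2 than in total RNAPII, were -0.34 for PRPF38B, -0.23 for HNRNPUL2, -0.22 for HNRNPA0 and -0.21 for HNRNPR. The highest were 0.14 for HNRNPAB, 0.09 for SF3B6, 0.07 for SNRPD1 and 0.06 for PRPF4. All 8 had a limma adjusted p of 1.0.

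**Figure D5:**
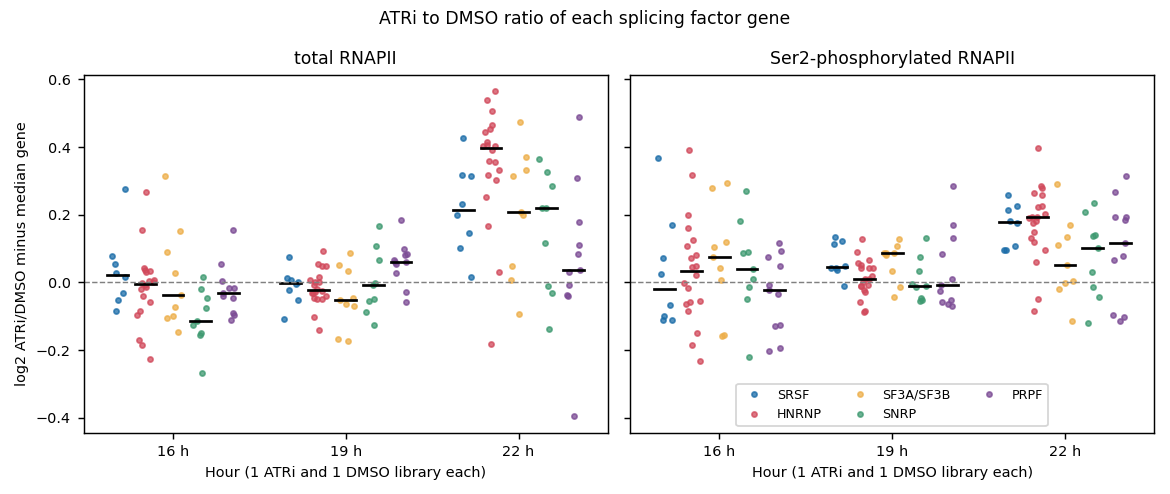
Log2 ratio of ATRi to DMSO minus that of the median gene for each splicing factor gene at 16, 19 and 22 h, in total RNAPII (left) and Ser2 (right), with 1 point per gene, colours for families and black bars for family medians. In total RNAPII the points centre near 0 at 16 and 19 h and most lie above 0 at 22 h, HNRNP genes highest.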

How the data were processed

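RNAPII was profiled in 14 libraries of 1 cell line, 1 per group. Per the labels and the values, the authors deposited RPM over the span of 12425 genes, with no division by length; mapping was with Bowtie2 2.3.3.1 and SAMtools 1.4 on hg38, per the submitters' processing notes. The counter, the annotation and any input or spike-in scaling are not given in the sources used here. Values in all 14 columns were whole multiples of 1 read (100.0%, tolerance 0.01 reads), so whole reads were recovered. Symbols were assigned by position against RefSeq GRCh38.p14 genes (Jaccard index of at least 0.8, or 0.5 with an end within 100 bp), which named 10737 genes (86.4%). The 14 mitochondrial genes were left out.

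Tests were limma 3.58.1 in R 4.3.3 (eBayes with trend, two-sided) on log2(RPM + 0.5), over every gene averaging 1 RPM or more, with Benjamini-Hochberg adjustment at 0.05. All 57 genes passed this minimum. The pseudocount makes fold changes of low genes too small. The fits were also run on simulated data with a common spread drawn independently for each gene and library. Those data do not cover shifts that the genes of a library share. Alternatives were a pseudocount of 0.1, no minimum, median centring, removal of the trend on read density (lowess), edgeR 4.0.16 and DESeq2 1.42.0 on recovered reads, leaving out each hour, and leaving out 7 genes that share at least 10% of their span. Depth sets a floor of 3 reads, 0.0481 to 0.175 RPM, for counting error only. Text names a fixed group of genes, the 4 highest and 4 lowest per comparison, up to 10 past the threshold by adjusted p, and the 5 highest and 5 lowest densities. Genes named under counts of 5 or fewer, by sign over all pairs or with the density trend removed, and the promoters shown, were chosen after their values were seen. SRSF1, SNRPN and PRPF4B of the fixed group were not matched to members. Members and lists were chosen with earlier results of these data known.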

Additional observations from a re-analysis of the deposited data

How the results depend on the processing

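The number of splicing factor genes with higher Ser2 at 22 h than at 16 h was 47, and it fell to 15 with median centring, 15 with edgeR, 9 with DESeq2 and 0 with the density trend removed, where the median relative to the median gene was 0.054. With edgeR and DESeq2, as with centring, the libraries are scaled to a typical gene. For Ser2 minus total RNAPII, the trend removal gave 7 higher and 6 lower and turned the median to 0.026, RPM as deposited gave 0 higher and 55 lower, and leaving out the 16 h or 22 h libraries left 7 or 19 lower. With the trend removed, the ATRi median in Ser2 turned to -0.021, 1 gene (HNRNPR) was higher at 22 h in total RNAPII, and the median of the hour difference between antibodies was -0.0. Without the 19 h libraries 5 genes were higher with ATRi in Ser2 and 4 in the hour difference between antibodies. The cause of these shifts was not tested.

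Values of single genes relative to the median gene that turned sign were, for ATRi in total RNAPII, PRPF18 (0.017 with the trend removed, 0.08 without 22 h), HNRNPLL (0.04 without 22 h) and HNRNPU (-0.027 without 22 h). In Ser2 they were SNRPB2 (0.041 without 16 h) and HNRNPLL (0.049 without 16 h, 0.006 without 19 h). In the ATRi difference between antibodies they were HNRNPUL2 (0.026) and HNRNPA0 (0.051), both without 22 h. In Ser2 minus total they were PRPF6 (-0.016) and SRSF2 (0.034), with the trend removed. Outside the genes followed, HNRNPA3, HNRNPUL1, HNRNPU, SF3B3 and HNRNPC also turned sign there and were called higher. The other 178 summary values moved by less than 1.5 times (counts) or by less than the spread between library pairs (medians). Among these the ATRi median in total RNAPII was -0.021 with the trend removed and -0.021 without 22 h, that of the ATRi difference between antibodies 0.038 without 22 h, and that of 22 h minus 16 h in total RNAPII 0.02 with the trend removed, each of opposite sign to the value reported. The ATRi tests were paired by hour (3 pairs) and the Ser2 to total tests by library pair (7 pairs), and no further block by replicate number was fitted, since the labels give no such numbers. With 1 library per group, the number of hours and pairs limits the precision of every test.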
